A study of Mus musculus with 9 samples.

Results

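Histone genes were followed in the RNA of mouse milk fat, with 75 of the 11206 genes listed in at least 1 library belonging to them. They were chosen by gene name: symbols beginning with Hist1, Hist2, Hist3 or Hist4 gave 66 replication-dependent genes, and symbols beginning with H1f, H2af or H3f gave 9 replacement genes, with names marked as pseudogenes by the suffix -ps dropped. Among the genes listed in at least 1 library, the names alone made the choice. By family, the replication-dependent genes were 5 linker H1 genes, 19 H2A, 17 H2B, 12 H3 and 13 H4 genes. The replacement genes were H1f0, H2afj, H2afv, H2afx, H2afy, H2afz, H3f3a, H3f3b and H3f3c.

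Milk fat floats as globules, which bud from the secretory cells of the mammary gland and take some of their cytoplasm along. Total RNA of this layer was sequenced at lactation day 10 from 9 primiparous ICR females, an outbred CD1 stock, with 1 library per dam. In the control diet, eaten by 5 dams, fat supplied 10% of the energy, at 3.85 kcal per gram. In the high fat diet, eaten by 4 dams, fat supplied 60% of it, at 5.24 kcal per gram. Both diets took 7% of energy from sucrose and were given from 4 weeks of age, which was 4 weeks before mating, until the milk was taken. No allele, transgene or further agent is named for either diet. Dams were housed in pairs within a diet before mating and cages are not named for the single dams, so the spread between dams may hold a part shared by a cage. After skimming, the fat was washed in saline and spun again to take out cells. Values are FPKM, fragment numbers divided by transcript length and library size, which puts genes of different length on 1 scale. Each table starts just above 1 FPKM, so a gene missing from one has an FPKM of 1 or below there. It is written as unlisted and was set to 0 in the tests.

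Histones are the proteins around which DNA is wound: H2A, H2B, H3 and H4 form the nucleosome core and H1 binds the DNA between cores. Replication-dependent genes are transcribed mainly while DNA is copied, have no introns in most cases, and give transcripts that end in a stem-loop, bound by the protein SLBP, in place of a poly(A) tail. Replacement genes are transcribed through the cell cycle and in cells that no longer divide, lie outside the clusters, mostly have introns and a poly(A) tail, and supply variants such as H3.3 and H2A.Z. The secretory epithelium of the lactating gland is known to hold many polyploid cells, which copy DNA without dividing around the onset of lactation. A kit for total RNA, as used here, does not depend on a poly(A) tail.

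The replication-dependent members lie in 4 groups. The Hist1 group on chromosome 13 had 54 members, the Hist2 group on chromosome 3 had 9, the Hist3 group on chromosome 11 had 2, and Hist4h4 lies on chromosome 6. Replacement members are scattered over 8 chromosomes. Of the 75 members, 73 were found by identifier in the mouse annotation GENCODE M21 on GRCm38, and 52 of these had identical bounds; coordinates are therefore read as GRCm38. In that annotation 70 members are protein coding, Hist1h2al and H3f3c are processed pseudogenes and Hist1h2aj is an unprocessed pseudogene. A further 12 names fitting the rule, among them Hist2h2be, Hist1h1t and H1fx, had no row in any library and so no value above 1 FPKM.

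The stem-loop that marks replication-dependent transcripts can be read in the annotated sequences. The letters GGNNCTNNTNAGNNCC were searched on each gene's own strand in the first 300 bases after the stop codon. They were found in 43 of the 48 replication-dependent members whose model has at least 16 bases of 3′ sequence after the stop codon, in 1 of 8 replacement members, and in 78 of 20983 protein-coding genes in all (0.372%). Below are runs of 26 bases from GENCODE M21 for an H4, an H1, an H2A and an H2B member and for H2afx, the replacement member that holds the motif. They are shown because the motif separates the groups that the names separate. The 16 motif bases are in capitals.
Hist1h4d, chr13:23581945-23581970, plus strand: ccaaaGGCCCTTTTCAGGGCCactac
Hist1h1e, chr13:23621777-23621802, minus strand: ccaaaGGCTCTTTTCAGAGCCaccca
Hist1h2ac, chr13:23683472-23683497, minus strand: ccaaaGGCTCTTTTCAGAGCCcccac
Hist1h2bk, chr13:22036295-22036320, plus strand: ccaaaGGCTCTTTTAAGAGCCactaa
H2afx, chr9:44335235-44335260, plus strand: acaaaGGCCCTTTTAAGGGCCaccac
The form shown for Hist1h1e and Hist1h2ac was shared by 24 members of the H1, H2A, H2B and H3 families. The form shown for Hist1h4d was shared by 7 members, all H4 genes. The form shown for Hist1h2bk was shared by 5, and that of H2afx was found in no other member.

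Promoters were read from RefSeq on GRCm38.p6, from 250 bases before to 50 after each gene's start, and matched for 59 replication-dependent and 8 replacement members. CCAAT, searched on both strands, is the box bound by NF-Y. It stood in 84.7% of the replication-dependent windows, in 62.5% of the replacement windows and in 37.9% of the windows of all 27025 genes. By family it stood in every H1, H2A, H2B and H3 window and in 3 of the 12 H4 windows. TATAAA, the core of the TATA box, searched on the gene's own strand, stood in 49.2%, 12.5% and 8.88%. ATTTGCAT, the octamer bound by Oct1 (POU2F1) that is known from H2B promoters, searched on both strands, stood in 20.3% of the replication-dependent windows, in 12.5% of the replacement windows and in 1.75% of all windows. It was found in 37.5% of H2A and 37.5% of H2B windows and in none of the H1, H3 or H4 windows. The H2A and H2B genes stand head to head in 10 pairs with 175 to 301 bases between the GENCODE M21 bounds, so the windows of such a pair overlap. No motif overlaps another in the 3 windows below, in which the motifs, CCAAT also as its complement ATTGG, are in capitals. They are an H2B, an H4 and a replacement H3.3 gene, shown because these families are compared below.
Hist2h2bb, chr3:96269450-96269749, plus strand: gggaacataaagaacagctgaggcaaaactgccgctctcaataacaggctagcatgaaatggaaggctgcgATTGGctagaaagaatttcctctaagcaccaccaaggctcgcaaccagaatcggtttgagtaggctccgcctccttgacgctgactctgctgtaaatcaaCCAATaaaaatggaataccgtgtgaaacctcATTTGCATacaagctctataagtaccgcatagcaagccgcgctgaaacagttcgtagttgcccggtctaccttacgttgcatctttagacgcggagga
Hist1h4d, chr13:23581318-23581617, plus strand: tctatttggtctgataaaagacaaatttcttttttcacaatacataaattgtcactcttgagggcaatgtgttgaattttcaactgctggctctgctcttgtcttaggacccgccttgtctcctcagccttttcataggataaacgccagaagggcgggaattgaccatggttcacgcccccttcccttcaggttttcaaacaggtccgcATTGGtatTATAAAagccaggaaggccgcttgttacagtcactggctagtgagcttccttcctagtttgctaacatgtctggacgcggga
H3f3a, chr1:180813556-180813855, minus strand: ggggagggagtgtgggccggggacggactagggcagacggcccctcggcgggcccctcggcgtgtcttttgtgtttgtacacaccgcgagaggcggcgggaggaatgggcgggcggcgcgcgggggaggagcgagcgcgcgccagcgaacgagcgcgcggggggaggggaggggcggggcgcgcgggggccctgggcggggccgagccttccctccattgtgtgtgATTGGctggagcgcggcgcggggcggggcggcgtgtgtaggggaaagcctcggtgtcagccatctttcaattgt
A match is a description of the letters and not of binding.

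Depth and breadth of the libraries differed. Control diet libraries listed 7098 to 8903 genes and high fat diet 1 to 4 listed 7974, 5124, 2075 and 4986, while relative depth read from the confidence bounds ran from 0.823 in high fat diet 2 to 1.59 in high fat diet 4. All 10 markers of luminal secretory epithelium, such as Csn2 and Wap, had a row, with summed levels of 12255 to 25292 FPKM on the control diet and 4363 to 23175 on the high fat diet. Markers of basal epithelium summed to 4.22 to 8.22 on the control diet and 0 to 6.06 on the high fat diet, with Krt5, Myh11, Oxtr and Trp63 unlisted in every library. Leukocyte markers summed to 4.44 to 22.4 on the control diet and 0 to 97.2 on the high fat diet, highest in high fat diet 1, with Cd3e, Cd79a, Csf1r and Adgre1 unlisted in every library. Erythroid markers were unlisted in every library. The part of these differences in the histone values was not tested.

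Histone transcripts were present in the milk fat of every dam, and the summed level of the replication-dependent genes was below that of every control dam in 3 of the 4 dams on the high fat diet. The summed FPKM of the replication-dependent genes was 2997, 701, 2467, 1874 and 779 in control diet 1 to 5 and 1471, 605, 142 and 347 in high fat diet 1 to 4; this order of libraries is kept in every list of values below. High fat diet 1 lay inside the control range, and high fat diet 2, 3 and 4 lay below it. The replacement genes summed to 273, 80.2, 197, 230 and 106 FPKM on the control diet and to 156, 118, 17.7 and 51.2 on the high fat diet. Here high fat diet 1 and 2 lay inside the control range. Replication-dependent genes were listed to the number of 65, 61, 65, 64 and 63 of 66 on the control diet and 65, 52, 28 and 52 on the high fat diet, and replacement genes to the number of 9 of 9 in each control diet library and 9, 9, 5 and 7 in the high fat diet libraries. In bulk RNA, fewer cells of a type and less RNA per cell cannot be told apart, and in a fat layer the number of cells behind a library was not measured.

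**Figure D1:**
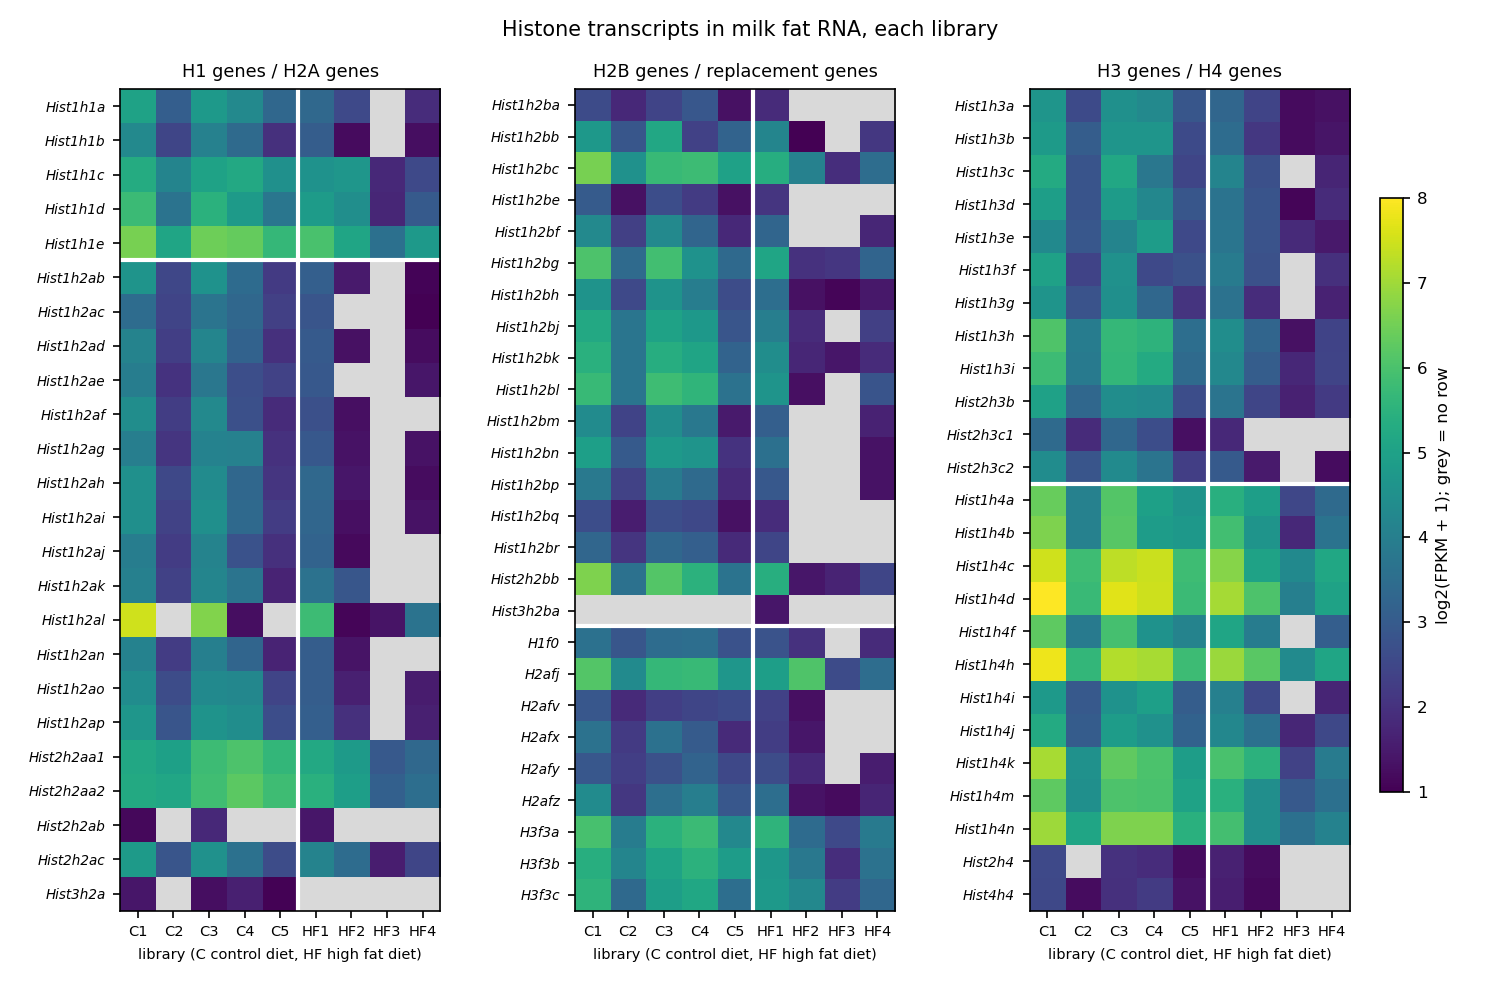
Level of each of the 75 histone members in each library, as log2(FPKM + 1) on the colour scale, with members in rows grouped by family and libraries in columns (C, control diet 1 to 5; HF, high fat diet 1 to 4; grey, no row). The H4 panel is the brightest, and the grey cells lie mainly in HF2, HF3 and HF4, where 52, 28 and 52 of 66 replication-dependent members were listed.

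Limma on log2(FPKM + 1), with p-values adjusted over all 7983 genes tested, called 35 of the 64 tested replication-dependent members lower in milk fat of high fat diet dams, and 0 were called higher. Among all genes tested 20.8% were called lower and 0.0% higher. The 64 are those that reached 1 FPKM in 4 or more libraries; Hist2h2ab and Hist3h2ba did not pass that filter. Of the 9 replacement members, all of them tested, 2 were called lower and 0 higher. By family the calls were 2 of 5 H1, 13 of 18 H2A, 14 of 16 H2B, 5 of 12 H3 and 1 of 13 H4 genes. The median log2 fold change was -1.80 for the replication-dependent and -1.44 for the replacement members, against -1.08 over all genes tested. It was below 0 in 64 of 64 replication-dependent members and in 98.8% of all genes, and an unadjusted p under 0.05 was reached by 46 of 64 and by 49.5% of all genes as lower. Family medians were -1.44 for H1, -1.87 for H2A, -1.98 for H2B, -1.73 for H3 and -1.31 for H4. In 0 of the 73 tested members did the diets separate completely, against 11.1% of all genes tested, since high fat diet 1 lay inside the control range for 65 of the 66 replication-dependent and 9 of the 9 replacement members.

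These calls rested on single libraries and on the scale. Without high fat diet 2 or without high fat diet 3, limma called 0 replication-dependent members, without control diet 3 it called 1, without high fat diet 4 it called 3, without control diet 4 it called 7 and without control diet 1 it called 10, while without high fat diet 1 it called 54. The count moved little without control diet 5, at 27, and stayed at 35 without control diet 2. With each library divided by its size factor, from medians of ratios, no gene of any kind passed limma, with 34 of 64 replication-dependent members and 20.0% of all genes lower at an unadjusted p under 0.05. The log2 fold change was then below 0 in 59 of 64 replication-dependent members and 83.3% of all genes. Medians were then -1.13 for replication-dependent, -0.43 for replacement and -0.55 for all genes, and under quantile normalization they were -0.66, -0.25 and 0.03. Of the 35 called members 29 were missing from high fat diet 3 and 12 from high fat diet 2, so their fold changes depend on the 0 set there. Among the 27 replication-dependent members listed in all 9 libraries, 6 were called, or 22.2%. The 20.8% called over all genes tested includes genes with unlisted values, so the 2 shares are from unlike sets. The median of the 27 members was -1.45, against -1.07 over the 1847 genes listed in all 9 libraries.

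**Figure D2:**
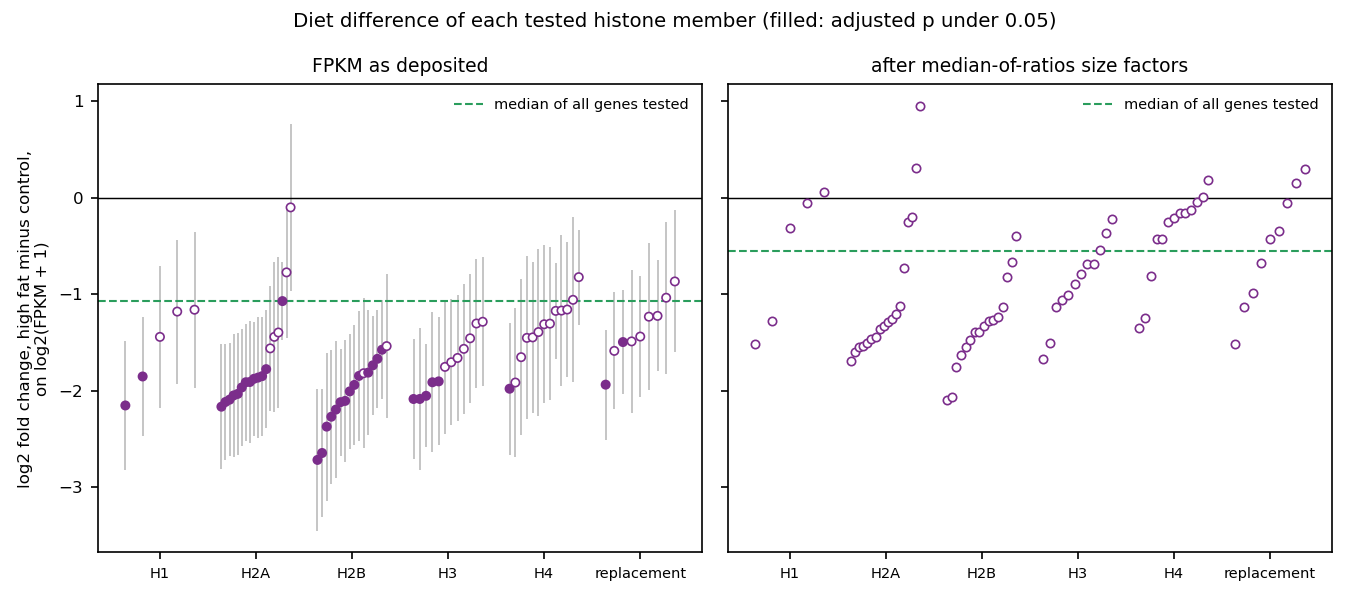
Log2 fold change of each tested histone member, high fat minus control diet, on log2(FPKM + 1), by family on the horizontal axis; bars are 1 standard error, filled points passed limma at an adjusted p under 0.05, and the dashed line is the median of all genes tested. As deposited (left) all H1, H2B and H3 points lie below the line of -1.08, while H2A, H4 and replacement points lie on both sides of it. After size factors (right) no point is filled and the line is at -0.55.

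The H4 genes gave the most abundant histone transcripts. Hist1h4d, the most abundant, was at 256, 53.1, 203, 177 and 54 FPKM on the control diet and 132, 65.6, 15.3 and 31.96 on the high fat diet (limma: log2 fold change -1.39, SE 0.865, adjusted p = 0.161). It did not pass, with high fat diet 1 and 2 above control diet 2 and 5. Hist1h4h was at 225, 48.4, 146, 135 and 54.9 FPKM on the control diet and 122, 72.7, 19.3 and 33.4 on the high fat diet, with a log2 fold change of -1.06 as deposited that turned to 0.18 after size factors and 0.28 under quantile normalization (limma adjusted p = 0.258 as deposited). Hist1h4c was at 179, 55.4, 157, 171 and 55.4 FPKM on the control diet and 105, 31.8, 19.1 and 35.3 on the high fat diet (limma: log2 fold change -1.45, adjusted p = 0.1403). In each of these the 3 highest libraries were control diet 1, 3 and 4. Hist1h4n was at 124, 33.4, 100.03, 99.4 and 42.2 FPKM on the control diet and 58.8, 20.8, 10.9 and 16.3 on the high fat diet (limma: log2 fold change -1.65, adjusted p = 0.09498). Hist1h4k was at 134, 22.2, 77.2, 64.4 and 28.6 FPKM on the control diet and 62.8, 44.5, 4.23 and 14.1 on the high fat diet (limma: log2 fold change -1.31, adjusted p = 0.162). All H4 genes encode the same core protein or nearly so, and their transcripts differ mainly outside the codons for it and at silent positions. Hist1h4b was at 99.6, 15.9, 71.8, 27.98 and 25.7 FPKM on the control diet and 58.1, 23.7, 2.52 and 11.6 on the high fat diet (limma: log2 fold change -1.31, adjusted p = 0.154). Hist1h4m was at 75.3, 21.4, 64.7, 62.2 and 32.04 FPKM on the control diet and 42.4, 21.2, 6.74 and 10.98 on the high fat diet (limma: log2 fold change -1.45, adjusted p = 0.118). High fat diet 3 was lowest in every H4 gene named so far.

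All 13 tested H4 genes had a log2 fold change below 0, and Hist1h4i was the 1 called lower. It was at 26.01, 6.73, 22.9, 29.9 and 7.296 FPKM on the control diet and 15.4, 4.87, unlisted and 2.28 on the high fat diet (limma: log2 fold change -1.98, SE 0.685, adjusted p = 0.0385), and lies at chr13:22040636-22041362 on the minus strand. High fat diet 1 lay inside the control range of 6.73 to 29.9 and high fat diet 2 and 4 below it. Of its 30-base words 33.8% occur in another member, against 87.8% for Hist1h4n, 86.9% for Hist1h4k and 91.96% for Hist1h4m, whose shares of fragments depend on how the authors' counting divided them. The 5 H4 genes outside these were Hist1h4a, Hist1h4f, Hist1h4j, Hist2h4 and Hist4h4. None passed.

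H1 proteins bind the linker DNA between nucleosomes. Hist1h1e, which encodes H1.4, was at 93.7, 33.4, 86.5, 80.8 and 50.1 FPKM on the control diet and 62.6, 33.6, 10.98 and 26.5 on the high fat diet, with a log2 fold change of -1.16 as deposited that turned to 0.06 after size factors and 0.13 under quantile normalization (limma adjusted p = 0.201 as deposited). Its 3 highest libraries were control diet 1, 3 and 4. Hist1h1a, which encodes H1.1, was called lower. It was at 31.6, 7.54, 26.2, 18.6 and 9.17 FPKM on the control diet and 9.39, 4.85, unlisted and 2.68 on the high fat diet (limma: log2 fold change -2.15, SE 0.671, adjusted p = 0.0305). Hist1h1b, which encodes H1.5, was called lower as well. It was at 18.6, 4.48, 15.7, 9.63 and 2.91 FPKM on the control diet and 7.29, 1.33, unlisted and 1.402 on the high fat diet (limma: log2 fold change -1.85, SE 0.614, adjusted p = 0.0341). In both the high fat diet 1 value lay inside the control range and the other listed high fat values lay below it. Their transcripts share little with other members, 0.421% and 3.36% of 30-base words. Hist1h1c and Hist1h1d, listed in all 9 libraries, did not pass.

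H2A genes of the Hist1 group encode near-identical proteins, and 12 of those tested were called lower. Hist1h2ac was at 10.2, 4.37, 12.05, 9.19 and 4.05 FPKM on the control diet and 6.24, unlisted, unlisted and 1.01 on the high fat diet (limma: log2 fold change -2.09, SE 0.584, adjusted p = 0.0219). It shares 13.2% of its 30-base words with other members, the lowest share among the called H2A genes of this group. An annotated transcript of 2482 bases runs beyond the deposited model, which spans 476, so the share within the measured part is not known. Hist1h2ae was at 14.5, 3.07, 12.7, 5.43 and 4.17 FPKM on the control diet and 6.56, unlisted, unlisted and 1.67 on the high fat diet (limma: log2 fold change -1.88, adjusted p = 0.0314). Hist1h2ab was at 23.4, 4.58, 22.5, 9.96 and 3.57 FPKM on the control diet and 7.66, 1.85, unlisted and 1.102 on the high fat diet (limma: log2 fold change -2.03, adjusted p = 0.0298). In all 3 the control diet 2 and 5 values lay below that of high fat diet 1, and high fat diet 3 was unlisted. Hist1h2ad was at 16.5, 3.91, 17.2, 8.12 and 2.95 FPKM on the control diet and 6.83, 1.49, unlisted and 1.34 on the high fat diet (limma: log2 fold change -1.78, adjusted p = 0.0378). Hist1h2af was at 20.6, 3.797, 18.8, 5.55 and 2.63 FPKM on the control diet and 5.49, 1.44, unlisted and unlisted on the high fat diet (limma: log2 fold change -2.12, adjusted p = 0.0241). Hist1h2ag was at 15.1, 3.26, 16.3, 15.96 and 2.97 FPKM on the control diet and 6.65, 1.52, unlisted and 1.55 on the high fat diet (limma: log2 fold change -1.85, adjusted p = 0.03502). Between 68.3% and 86.2% of the 30-base words of these 3 occur in other members.

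Hist1h2ah, Hist1h2ai, Hist1h2aj, Hist1h2an, Hist1h2ao and Hist1h2ap share 89.3% to 93.8% of their 30-base words with other members, and their values are uncertain as single genes. Hist1h2ah was at 21.9, 4.76, 19.95, 9.08 and 3.26 FPKM on the control diet and 9.29, 1.703, unlisted and 1.33 on the high fat diet (limma: log2 fold change -1.87, adjusted p = 0.0364). Hist1h2ai was at 21.2, 4.22, 21.4, 9.497 and 3.78 FPKM on the control diet and 8.97, 1.45, unlisted and 1.53 on the high fat diet (limma: log2 fold change -1.91, adjusted p = 0.0341). Hist1h2aj, annotated as an unprocessed pseudogene, was at 14.6, 3.74, 16.6, 5.84 and 2.91 FPKM on the control diet and 8.43, 1.25, unlisted and unlisted on the high fat diet (limma: log2 fold change -1.91, adjusted p = 0.0314). In these 3 control diet 1 and 3 held the highest values, and control diet 2 and 5 the lowest among the control libraries. Hist1h2an was at 16.1, 3.78, 15.2, 8.77 and 2.24 FPKM on the control diet and 7.29, 1.56, unlisted and unlisted on the high fat diet (limma: log2 fold change -1.97, adjusted p = 0.0292). Hist1h2ao was at 20.3, 5.23, 19.1, 17.8 and 4.36 FPKM on the control diet and 7.43, 2.05, unlisted and 1.92 on the high fat diet (limma: log2 fold change -2.05, adjusted p = 0.0298). Hist1h2ap was at 24.8, 6.16, 23.3, 20.5 and 5.28 FPKM on the control diet and 7.66, 2.89, unlisted and 2.09 on the high fat diet (limma: log2 fold change -2.17, SE 0.6504, adjusted p = 0.0279). In these 3 the high fat diet 1 value was above control diet 2 and 5 and the rest of the high fat diet lay below the control range.

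Outside that group 1 H2A gene was called lower. Hist3h2a, at chr11:58954685-58956830, was at 1.68, unlisted, 1.41, 2.08 and 1.07 FPKM on the control diet and unlisted on the high fat diet (limma: log2 fold change -1.07, SE 0.4005, adjusted p = 0.0468). It passed the filter only through the control diet, overlaps the model of Trim17 on the same strand, and its log2 fold change turned to 0.11 under quantile normalization. Hist2h2aa2, whose transcript shares all of its 30-base words with its neighbour Hist2h2aa1, was at 36.8, 34.2, 57.1, 74.6 and 56.3 FPKM on the control diet and 42.4, 29.6, 7.86 and 10.6 on the high fat diet (limma: log2 fold change -1.40, adjusted p = 0.129). These 2 were the only replication-dependent members with control diet 5 above control diet 1, which was so in 35.2% of all genes tested. Hist1h2al, annotated as a processed pseudogene away from the cluster at chr13:51202688-51203065, was at 181, unlisted, 100.4, 1.4 and unlisted FPKM on the control diet and 54.6, 1.13, 1.59 and 11.8 on the high fat diet. Within the control diet 2 libraries were thus above 100 FPKM and 3 at 1.40 or unlisted, and its log2 fold change of -0.10 as deposited turned to 0.95 after size factors and 0.93 under quantile normalization (limma adjusted p = 0.912 as deposited). Of its 30-base words 80.6% occur in Hist2h2aa1. Hist2h2ab was listed only in control diet 1 and 3 and high fat diet 1.

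H2B genes had the lowest family median, and 14 of the 16 tested were called. Hist1h2bl was at 52.05, 12.3, 55.5, 46.7 and 11.5 FPKM on the control diet and 23.6, 1.46, unlisted and 6.01 on the high fat diet (limma: log2 fold change -2.72, SE 0.738, adjusted p = 0.0199), the largest fall of any member. Hist1h2bn was at 30.01, 6.91, 26.7, 23.4 and 3.07 FPKM on the control diet and 10.9, unlisted, unlisted and 1.51 on the high fat diet (limma: log2 fold change -2.65, SE 0.662, adjusted p = 0.0161), with the smallest adjusted p of any member. They share 88.6% and 88.1% of their 30-base words with other members, and their values are uncertain as single genes. Hist2h2bb, whose promoter is printed above and which shares only 7.10% of its 30-base words with other members, was at 98.5, 11.3, 68.7, 44.5 and 11.7 FPKM on the control diet and 40.6, 1.67, 2.23 and 4.51 on the high fat diet (limma: log2 fold change -2.37, SE 0.766, adjusted p = 0.0322). In these 3 the control diet 1 and 3 values were the highest and high fat diet 1 lay above control diet 2 and 5. Hist1h2bk was at 42.7, 12.2, 40.04, 33.2 and 8.39 FPKM on the control diet and 20.6, 2.39, 1.71 and 2.66 on the high fat diet (limma: log2 fold change -2.20, adjusted p = 0.0322). Hist1h2bj was at 36.7, 12.1, 31.9, 25.6 and 6.22 FPKM on the control diet and 14.98, 2.61, unlisted and 4.002 on the high fat diet (limma: log2 fold change -2.27, adjusted p = 0.0286). Hist1h2bk and Hist1h2bj share 75.4% and 67.7% of their 30-base words with other members. Hist1h2bh was at 23.4, 4.85, 22.98, 14.6 and 5.15 FPKM on the control diet and 10.5, 1.5, 1.14 and 1.73 on the high fat diet (limma: log2 fold change -1.81, adjusted p = 0.0414). Hist1h2bk, Hist1h2bh and Hist2h2bb were the called H2B members listed in all 9 libraries. In each of them high fat diet 1 exceeded the next high fat library by more than that library exceeded the lowest.

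Hist1h2bm was at 19.95, 4.32, 20.7, 12.8 and 1.85 FPKM on the control diet and 7.695, unlisted, unlisted and 2.21 on the high fat diet (limma: log2 fold change -2.11, adjusted p = 0.0275). Hist1h2bf was at 18.5, 3.998, 18.7, 8.82 and 2.52 FPKM on the control diet and 8.81, unlisted, unlisted and 2.39 on the high fat diet (limma: log2 fold change -1.94, adjusted p = 0.0322). Of the 30-base words of Hist1h2bf 73.6% occur in other members. Hist1h2bb was at 25.4, 6.33, 35.7, 4.12 and 8.45 FPKM on the control diet and 17.2, 1.003, unlisted and 3.36 on the high fat diet (limma: log2 fold change -1.85, adjusted p = 0.0438). Hist1h2bb was the called H2B gene in which control diet 4 lay below control diet 2. Hist1h2bp was at 13.3, 4.18, 13.9, 9.72 and 2.58 FPKM on the control diet and 6.63, unlisted, unlisted and 1.52 on the high fat diet (limma: log2 fold change -2.01, adjusted p = 0.0269). Hist1h2br was at 8.94, 3.24, 9.05, 7.75 and 2.58 FPKM on the control diet and 4.56, unlisted, unlisted and unlisted on the high fat diet (limma: log2 fold change -2.12, adjusted p = 0.0172). Hist1h2bq was at 5.301, 1.93, 5.42, 4.67 and 1.49 FPKM on the control diet and 2.69, unlisted, unlisted and unlisted on the high fat diet (limma: log2 fold change -1.67, adjusted p = 0.0285). Hist1h2bq and Hist1h2br share 98.3% and 89.6% of their 30-base words with other members, mostly with each other. Hist1h2ba, the testis-type H2B gene, was at 5.04, 2.48, 4.37, 6.43 and 1.49 FPKM on the control diet and 2.64, unlisted, unlisted and unlisted on the high fat diet (limma: log2 fold change -1.74, adjusted p = 0.0263). Only 2.21 to 13.5 fragments stood behind its listed values, and 44.5% of its 30-base words occur in other members, so it is uncertain as a single gene. Hist1h2be was at 7.01, 1.51, 5.24, 3.62 and 1.51 FPKM on the control diet and 3.27, unlisted, unlisted and unlisted on the high fat diet (limma: log2 fold change -1.58, adjusted p = 0.0331), with a deposited model that runs from 23583742 to 23621124 on chromosome 13 and overlaps Hist1h1e in the annotation. The 2 tested H2B genes not called were Hist1h2bc and Hist1h2bg, and Hist3h2ba was listed in high fat diet 1 alone.

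The H3 genes of the Hist1 group encode H3.1 and H3.2, and 5 of 12 H3 genes were called lower. Hist2h3c1, at chr3:96246685-96248504, was at 9.63, 2.64, 9.15, 5.26 and 1.43 FPKM on the control diet and 2.53, unlisted, unlisted and unlisted on the high fat diet (limma: log2 fold change -2.05, SE 0.535, adjusted p = 0.0164). Hist2h3c2 was at 20.1, 6.23, 19.4, 12.02 and 3.93 FPKM on the control diet and 6.897, 1.85, unlisted and 1.36 on the high fat diet (limma: log2 fold change -2.09, adjusted p = 0.0275). Both encode H3.2, lie in the Hist2 group on chromosome 3, and share 64.3% of the 30-base words of Hist2h3c2. Hist1h3h was at 66.4, 14.4, 49.9, 45.05 and 10.5 FPKM on the control diet and 20.6, 8.75, 1.498 and 4.28 on the high fat diet (limma: log2 fold change -2.09, adjusted p = 0.0409). Hist1h3i was at 54.2, 13.8, 48.5, 38.1 and 9.71 FPKM on the control diet and 18.4, 7.34, 2.41 and 4.46 on the high fat diet (limma: log2 fold change -1.91, adjusted p = 0.0486). Hist1h3b was at 27.2, 7.35, 24.1, 24.3 and 4.99 FPKM on the control diet and 10.2, 3.37, 1.29 and 1.62 on the high fat diet (limma: log2 fold change -1.91, adjusted p = 0.0386). These 3 were listed in all 9 libraries, with high fat diet 1 inside the control range and the other 3 high fat libraries below it. Hist1h3h and Hist1h3i share 94.2% and 93.5% of their 30-base words with other members and Hist1h3b 62.1%, so the first 2 are uncertain as single genes. The 7 H3 genes not called had adjusted p between 0.05002 and 0.109 (limma).

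The other 21 replication-dependent members had mean levels of 0.190 to 35.9 FPKM over the 9 libraries. Of them 19 were tested, with limma adjusted p of 0.05002 to 0.292, and none passed. In 27 of all 75 members a gene on the opposite strand overlaps the annotated model, and in 20 of them a miRNA model is among the overlaps. With the strand setting of the counting not given in the sources used here, reads of such partners cannot be told apart. In 7 of the 75 members a gene on the same strand overlaps, among them Hist2h2bb, overlapped by the long noncoding RNA model Gm42743.

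Of the 9 replacement genes 2 were called lower, or 22.2%, near the 20.8% of all genes tested. H2afx, which encodes the variant phosphorylated at DNA breaks, was called lower. It was at 11.5, 3.59, 11.1, 7.11 and 2.56 FPKM on the control diet and 3.8, 1.66, unlisted and unlisted on the high fat diet (limma: log2 fold change -1.94, SE 0.571, adjusted p = 0.0263). It is the replacement member whose transcript holds the stem-loop printed above. H2afv, which encodes a close relative of H2A.Z, was called lower as well. It was at 6.41, 2.58, 3.89, 4.498 and 4.96 FPKM on the control diet and 4.1, 1.46, unlisted and unlisted on the high fat diet (limma: log2 fold change -1.50, SE 0.541, adjusted p = 0.0428). Both were unlisted in high fat diet 3 and 4. H2afz, which encodes H2A.Z, was at 19.7, 3.39, 10.8, 15.1 and 6.45 FPKM on the control diet and 10.6, 1.54, 1.32 and 2.29 on the high fat diet (limma: log2 fold change -1.44, adjusted p = 0.0723). H2afy, which encodes macroH2A1, was at 6.43, 3.88, 5.61, 8.3 and 4.69 FPKM on the control diet and 5.21, 2.47, unlisted and 1.96 on the high fat diet (limma: log2 fold change -1.23, adjusted p = 0.0854). H1f0, the linker histone H1.0 of cells that have left the cycle, was at 11.2, 6.34, 10.2, 10.5 and 5.75 FPKM on the control diet and 5.93, 2.96, unlisted and 2.66 on the high fat diet (limma: log2 fold change -1.59, adjusted p = 0.0502). In H1f0 and H2afy the high fat diet 2 and 4 values lay below the control range. H2afj was at 69.01, 19.4, 49.6, 51.9 and 24.4 FPKM on the control diet and 29.1, 66.5, 5.01 and 10.3 on the high fat diet, with high fat diet 2 near the highest control library, and its log2 fold change of -1.04 as deposited turned to 0.15 after size factors and 0.30 under quantile normalization (limma adjusted p = 0.234 as deposited).

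The H3.3 protein is encoded by both H3f3a and H3f3b. H3f3a was at 61.4, 14.2, 43.2, 53.6 and 18.4 FPKM on the control diet and 45.8, 9.81, 4.81 and 13.6 on the high fat diet (limma: log2 fold change -1.23, adjusted p = 0.1596), and its log2 fold change turned to 0.08 under quantile normalization. H3f3b was at 40.96, 17.2, 32.6, 44.6 and 28.5 FPKM on the control diet and 25.2, 13.04, 2.77 and 11.4 on the high fat diet (limma: log2 fold change -1.49, adjusted p = 0.0983). In both genes high fat diet 1 lay inside the control range and the other 3 high fat libraries below it. H3f3c, annotated as a processed pseudogene with 79.8% of its 30-base words in H3f3a, was at 46.1, 9.599, 29.6, 34.7 and 10.6 FPKM on the control diet and 26.1, 18.1, 3.75 and 9.08 on the high fat diet, and its log2 fold change of -0.87 as deposited turned to 0.29 after size factors and 0.42 under quantile normalization (limma adjusted p = 0.277 as deposited). After size factors the replacement genes summed to 117, 106, 111, 109 and 106 on the control diet and 108, 142, 83.0 and 93.8 on the high fat diet. The replication-dependent genes then summed to 1286, 923, 1386, 884 and 773 on the control diet and 1021, 729, 669 and 636 on the high fat diet. On that scale the replacement control values lay within 105.6 to 117, and 3 of the 4 high fat values of the replication-dependent genes lay below their control range.

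**Figure D3:**
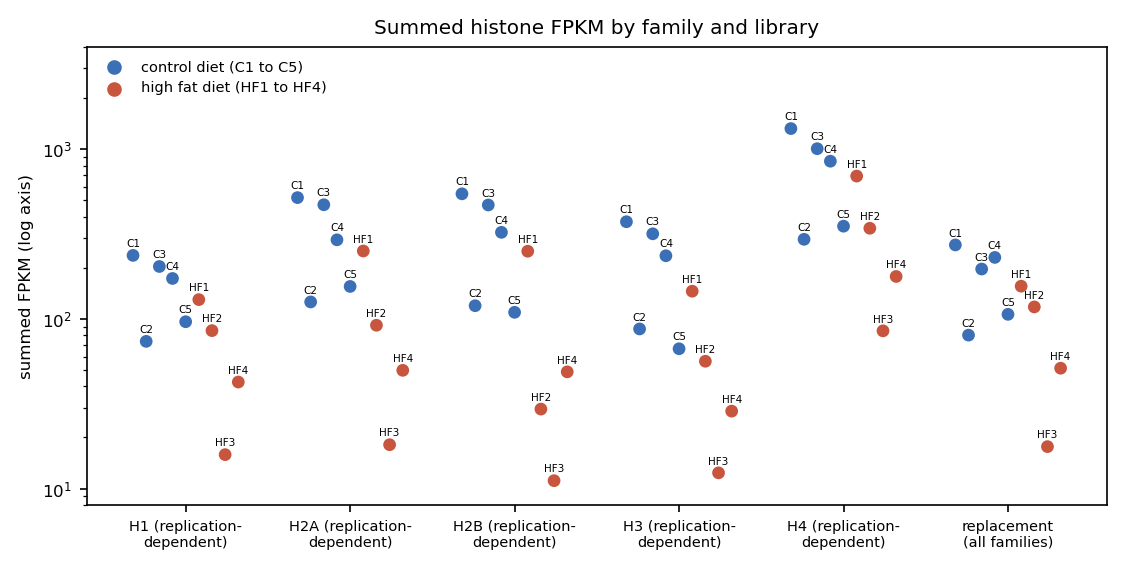
Summed FPKM of each replication-dependent family and of the replacement genes in each library, on a logarithmic axis (blue, control diet C1 to C5; red, high fat diet HF1 to HF4; each point 1 library). C1, C3 and C4 stand above C2 and C5 in each replication-dependent family, HF1 stands between them, and HF3 is the lowest throughout.

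Dams on the control diet also differed among themselves. Control diet 1 held the highest value in 45 of 66 replication-dependent members, control diet 3 in 14, control diet 4 in 6 and high fat diet 1 in 1, while over all genes tested control diet 1 was highest in 34.5%. Control diet 2 lay below high fat diet 1 in 64 of 66 replication-dependent members, against 70.7% of all genes tested, and control diet 5 in 63 of 66, against 47.0%. High fat diet 3 was lowest or unlisted in 62 of 66, or 93.9%, and in all 9 replacement members, against 94.8% of all genes tested. The members share their library, so these counts are no measure of how often such an order arises. Fragments behind a replication-dependent member, read from the authors' confidence bounds, had medians of 109, 28.0, 111, 76.4 and 25.2 on the control diet and 52.8, 13.4, 9.79 and 16.04 on the high fat diet. The values of high fat diet 2, 3 and 4 are therefore the least precise.

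The balance between families moved with the library. The ratio of summed H2B to summed H4 FPKM was 0.413, 0.406, 0.466, 0.381 and 0.311 on the control diet and 0.361, 0.0860, 0.131 and 0.274 on the high fat diet. High fat diet 1 lay inside the control range and the other 3 below it. Over the 5 H2B and 9 H4 genes listed in all 9 libraries, so that no value is set to 0, the ratio was 0.267, 0.221, 0.264, 0.215 and 0.203 on the control diet and 0.227, 0.0760, 0.131 and 0.165 on the high fat diet, with the same libraries below the control range. The fewest fragments behind a value of these H2B genes ran from 1.59 for Hist1h2bh to 14.7 for Hist1h2bc, so the low ratios are imprecise. H2B genes made up 14.0% to 19.0% of the replication-dependent sum on the control diet and 17.0%, 4.86%, 7.81% and 14.0% on the high fat diet. H4 genes made up 40.8% to 45.3% on the control diet and 47.2%, 56.6%, 59.6% and 51.2% on the high fat diet. All 13 H4 members were listed in high fat diet 2, against 8 of 17 H2B members, and in high fat diet 3 the numbers were 9 of 13 and 5 of 17. Nucleosomes take up H2B and H4 proteins in equal number, but the transcripts differ in length of life and in translation, so a transcript ratio is no measure of the proteins.

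The ratio of H3f3a and H3f3b to the replication-dependent H3 genes was 0.274, 0.360, 0.239, 0.417 and 0.703 on the control diet and 0.488, 0.406, 0.612 and 0.873 on the high fat diet. Of the high fat libraries, 1, 2 and 3 lay inside the control range and 4 above it. Over genes listed in all 9 libraries it was 0.408, 0.506, 0.362, 0.513 and 0.978 on the control diet and 0.757, 0.565, 0.612 and 1.26 on the high fat diet. The diets overlapped on both versions, and control diet 5 was the highest control library on both. High fat diet 1, 3 and 4 lay above control diet 1 to 4 in the first version and all 4 did in the second.

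**Figure D4:**
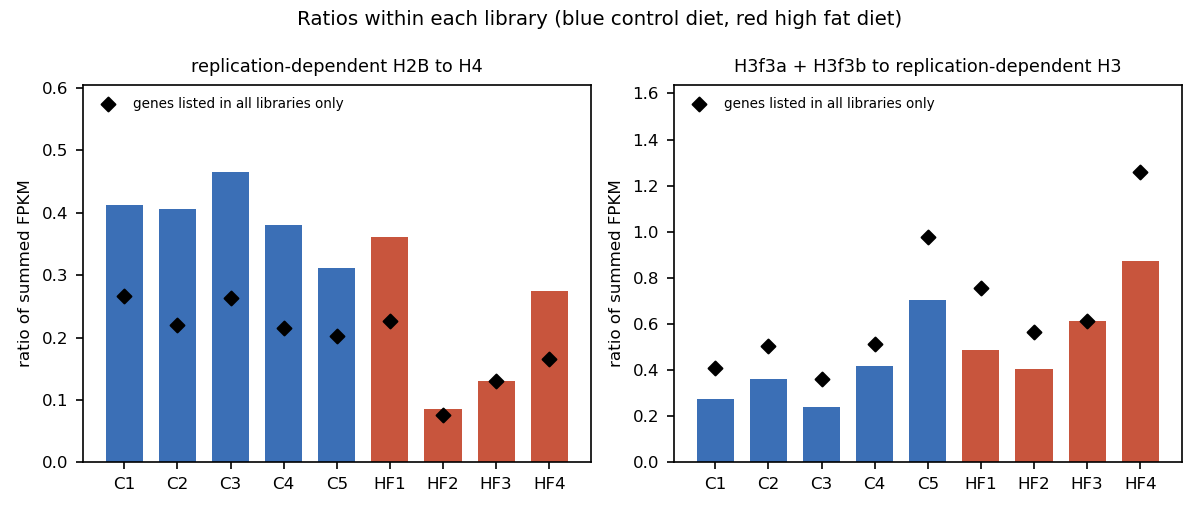
Ratio within each library of summed replication-dependent H2B to H4 FPKM (left) and of H3f3a plus H3f3b to replication-dependent H3 FPKM (right), libraries on the horizontal axis; bars use every member with unlisted genes as 0, diamonds only the genes listed in all 9 libraries. On the left HF2, HF3 and HF4, at 0.0860, 0.131 and 0.274, lie below the lowest control bar of 0.311; on the right the diets overlap.

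The 10 head-to-head pairs of an H2A and an H2B gene share the stretch between them, and in 7 pairs both genes were called lower, where 72.2% of H2A genes, 87.5% of H2B genes and 20.8% of all genes were. Mean FPKM over the 9 libraries was higher for the H2B gene in 7 of the 10. Their ratio ran from 0.275 for Hist1h2bq over Hist1h2ao to 6.86 for Hist1h2bc over Hist1h2ac. FPKM divides by length, and the deposited model of Hist1h2bq spans 3788 bases against 480 for Hist1h2ao. Where listed, Hist1h2bq had 32.6 to 111 fragments and Hist1h2ao 4.09 to 58.5, so the order in FPKM is not that in fragments. Hist1h2bq and Hist1h2ao share 98.3% and 93.8% of their 30-base words with other members and are uncertain as single genes. Hist1h2bc stood above Hist1h2ac in 9 of 9 libraries and Hist1h2bq above Hist1h2ao in 0 of 9. The 250 bases between Hist1h2ac and Hist1h2bc in the annotation thus lie between a called gene at a mean of 5.23 FPKM and an uncalled one at 35.9. Both fell, with log2 fold changes of -2.09 (SE 0.584) and -1.82 (SE 0.777) and limma adjusted p of 0.0219 and 0.0668. Whether the 2 fold changes differ was not tested.

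Genes that process histone mRNA, carry histone proteins or copy DNA were counted in the same fit. Of 24 listed for histone mRNA processing, 21 had a row, 18 were tested and 1 was lower, or 5.56%, against 20.8% of all genes: Upf1, a helicase needed for the decay of histone mRNA when replication stops, at 2.27, 1.73, 3.06, 2.30 and 3.93 FPKM on the control diet and at 1.53 in high fat diet 1 only (limma: log2 fold change -1.51, adjusted p = 0.0306). Sympk of the cleavage complex, Ncbp1 of the cap-binding complex and Mtpap, the mitochondrial poly(A) polymerase, had adjusted p of 0.0717, 0.0773 and 0.0809 (limma). Snrpb, a core protein of spliceosomal and U7 particles and the most abundant of the list, was at 28.6, 6.04, 17.2, 21.4 and 10.9 FPKM on the control diet and 9.27, 1.94 and 4.39 in high fat diet 2 to 4, with 14.8 in high fat diet 1 (limma adjusted p = 0.145). The genes of this list were listed to the number of 13 to 19 on the control diet and 18, 15, 4 and 11 on the high fat diet.

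Of 27 histone chaperone genes, 26 had a row, 24 were tested and 5 were lower, or 20.8%, against 20.8% of all genes tested. Hira, the H3.3 chaperone, was at 1.80, 1.10, 2.46 and 3.05 FPKM in control diet 1 to 4 and unlisted in the other 5 libraries (limma: log2 fold change -1.27, adjusted p = 0.0341). Ubn2, its partner, was at 1.91, 1.82, 2.97, 1.51 and 4.37 on the control diet and 1.41 in high fat diet 1 (adjusted p = 0.0324). Hjurp, the chaperone of the centromere histone, was at 1.14, 2.26, 2.22 and 4.77 in control diet 2 to 5 and unlisted elsewhere (adjusted p = 0.0297). Hira and Hjurp were listed in no high fat diet library and so passed the filter through the control diet alone. Atrx, which places H3.3 at repeats, was at 7.52, 6.86, 11.3, 6.96 and 12.9 on the control diet and 5.77, 1.83, unlisted and 3.02 on the high fat diet (adjusted p = 0.0398). The last of the 5 was Spty2d1. Npm1, the most abundant of the list, did not pass (adjusted p = 0.172, all from limma). Of the genes with values here, Ubn2, Hjurp and Atrx were highest in control diet 5. Hira was unlisted there, and Npm1 was at 5.44 FPKM against 16.8 in control diet 1. Summed over the list, control diet 5 was at 101 FPKM, against 129, 65.8, 119 and 128 in control diet 1 to 4.

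Of 36 replication and S phase genes, 29 had a row, 21 were tested and 7 were lower, or 33.3%, against 20.8% of all genes. Cdk1, the mitotic kinase and the most abundant of the list, was at 13.6, 1.66, 9.52, 8.92 and 2.26 FPKM on the control diet and at 5.00 in high fat diet 1 only (limma: log2 fold change -2.09, adjusted p = 0.0201). Mcm3, of the replicative helicase, was at 2.61, 2.34, 4.09, 2.999 and 1.10 on the control diet and unlisted on the high fat diet (limma: log2 fold change -1.80, adjusted p = 0.0160). Mcm2 of the same helicase and Pold1, the catalytic subunit of DNA polymerase delta, were likewise listed in all 5 control diet and no high fat diet libraries (limma adjusted p = 0.0250 and 0.0284). These 3 of the 7 passed the filter through the control diet alone, so the count of 7 is a description. Genes of this list were listed to the number of 28, 15, 26, 23 and 14 on the control diet and 17, 8, 0 and 2 on the high fat diet. Control diet 2 and 5, low in the replication-dependent histone genes, had the fewest of the control libraries. In high fat diet 3, where none of the list was listed, 28 of 66 replication-dependent histone genes still were. Levels near 1 FPKM decide whether a gene is listed, and Cdk1 as the most abundant reached 13.6 FPKM against 256 for Hist1h4d, so the numbers listed are not on 1 footing.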

How the data were processed

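The RNA of 9 milk fat samples, 1 per dam, was measured. Each deposited table gives FPKM by gene with a lower and an upper confidence bound, as made by the authors, per the file headers. Tools named by the submitters' processing notes, without versions, are Trimmomatic and FastQC for reads, TopHat and Bowtie2 for alignment, and Cufflinks, DESeq2 and HTSeq. No source used here gives the build or the strand setting. Counts were not analysed here, and total depth is unknown. The lowest deposited FPKM was 1.00006, so a gene at or below 1 has no row. Identifiers repeated within a table, 6 in all and none a histone gene, kept their highest FPKM.

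The 7983 genes reaching FPKM 1 in 4 or more libraries were tested with limma (version 3.58.1, R 4.3.3) on log2 of FPKM plus a pseudocount of 1. The variance followed a trend on the mean, diet was the single term, tests were 2-sided, and Benjamini-Hochberg adjustment covered every gene tested, at a threshold of 0.05. This scale understates changes at low FPKM. The fit was tested on simulated data. Bounds were taken as 2 standard deviations from FPKM, which gives a number of fragments per gene that covers counting error only. Alternatives rescaled the libraries by size factors or quantiles, changed the pseudocount, filter, value of unlisted genes, variance model, library weights or replicate block, and left out libraries.

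Sequences came from GENCODE M21 (GRCm38) and RefSeq (GRCm38.p6). A 30-base word counts as shared if another member's transcript holds it. Values by library are given for tested replacement members, called replication-dependent members, the 10 replication-dependent members of highest mean FPKM, and, per list, the 4 genes of smallest p and the most abundant. Members, lists and tests were chosen with earlier results of these data known, and no count over a list is a test of it.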

Additional observations from a re-analysis of the deposited data

Results flagged for a closer look

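In the groups of 4 high fat or 5 control diet libraries, the highest or lowest library was compared with its nearest neighbour by Dixon's ratio. Of 91 groups checked, 5 stood out, and chance marks about 1 in 20. All 5 were high fat diet 1, the library whose values lay inside the control range for nearly every histone gene. H2afz was at 10.6 FPKM there, against 1.32 to 2.29 in the other high fat libraries. Hist1h2bh was at 10.5 FPKM, against 1.14 to 1.73. Hist1h2bk was at 20.6 FPKM, against 1.71 to 2.66. Hist2h2bb was at 40.6 FPKM, against 1.67 to 4.51. The summed FPKM of the H2B genes was 250.4, against 11.1 to 48.7, and it contains the 3 H2B genes just named.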

How the results depend on the processing

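Counts of genes called lower moved with nearly every choice. For replication-dependent histone genes (35 as reported), replacement histone genes (2), mRNA processing (1), chaperones (5), replication (7) and all genes (1662), in that order, size factors and quantile normalization each gave 0, 0, 0, 0, 0 and 0. At an unadjusted p under 0.05, size factors gave 34, 2, 1, 5, 8 and 1600 lower. A pseudocount of 0.1 gave 0, 0, 0, 0, 3 and 145, no filter 0, 0, 0, 0, 0 and 13, unlisted genes at 1 FPKM 2, 0, 0, 0, 0 and 87, and no mean-variance trend 0, 0, 0, 0, 0 and 11. Library weights gave 63, 9, 18, 23, 21 and 6714, with 13 higher. Genes listed in all 9 libraries gave 0, 0, 0, 0 and 15, and no replication gene is listed in all 9. Without high fat diet 2 and 3 together all 6 counts were 0. Leaving out each library in turn gave 0 to 54, 0 to 7, 0 to 13, 0 to 19, 0 to 16 and 17 to 5259. A pseudocount of 0.5 and summing repeated rows kept every count within 1.5 times. The cause of these moves was not tested. In every alternative the replication-dependent median lay below that of all genes, by -1.11 to -0.38.

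Same-numbered libraries did not deviate together (correlations 0.14, -0.28, 0.04 and -0.09). These few correlations, on FPKM as deposited, cannot exclude that the numbers pair dams. With the replicate block the counts were 2, 0, 0, 0, 1 and 29 lower.

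Fold changes that reversed, among the histone genes described library by library, were, after size factors, H2afj 0.15, H3f3c 0.29, Hist1h4h 0.18, Hist1h1e 0.060 and Hist1h2al 0.95, and under quantile normalization H2afj 0.30, H3f3a 0.077, H3f3c 0.42, Hist3h2a 0.11, Hist1h4h 0.28, Hist1h1e 0.13 and Hist1h2al 0.93. Of the other histone genes, Hist2h2ac and Hist1h4a reversed after size factors, to 0.31 and 0.0079, and Hist2h2ac, Hist2h4, Hist1h4a, Hist1h4j and Hist1h1d under quantile normalization, to 0.44, 0.15, 0.10, 0.073 and 0.051. Hist1h2al also reached 0.98 and 0.18 with pseudocounts of 0.1 and 0.5, 1.00 and 0.79 without control diet 1 and 3, 0.53 and 0.43 without high fat diet 2 and 3, and 1.65 without both, against -1.04 without high fat diet 1. The fewest fragments per gene, in high fat diet 3, limit values near 1 FPKM.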
